A study of Homo sapiens with 4 samples.

Results

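The genes described here are the sensors of the unfolded protein response (UPR), the proteases and the transcription factor that they act through, and the kinases of the translation initiation factor eIF2α. The 10 genes were taken by symbol from the 25192 genes of the deposited tables, and all 10 passed the filter on low counts that left 14099 genes for testing. RNA came from A549, a human lung adenocarcinoma cell line, 48 h after infection. Control cells received the empty virus (EV), a retrovirus made from the pLZRS-IRES-GFP vector that expresses only GFP, and the FCN3 group received the same vector carrying the coding sequence of ficolin-3 (FCN3) with a V5 tag at its C-terminus. Both groups therefore carried a retroviral vector and GFP, no untransduced cells were compared, and there were 2 libraries per group. Nothing in the labels says that the replicates came from separate transductions, so the p-values measure only the spread between these libraries, which may be technical.

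The libraries held between 16353554 and 35733735 expected counts, and in both groups replicate 1 was the deeper one. FCN3 was at 1 and 0 expected counts in the EV libraries and at 722388 and 448352 in the FCN3 libraries. All 5 epithelial keratin and adhesion markers were above 1 TPM (transcripts per 1000000, a level corrected for gene length) in every library, with summed levels of 3634.48 to 4586.57 TPM in EV and 4134.93 to 5259.07 TPM in FCN3 libraries. Nearly all of these sums came from KRT8 and KRT18, and the other markers did not move together. KRT19 was at 32.56 and 52.39 TPM in EV and 87.19 and 97.88 TPM in FCN3 libraries. EPCAM was at 2.66 and 3.65 TPM in EV and 1.09 and 1.61 TPM in FCN3 libraries. CDH1 was at 6.06 and 9.53 TPM in EV and 3.35 and 6.79 TPM in FCN3 libraries. Of 6 alveolar type II markers only ABCA3 was above 1 TPM in every library. Immune markers summed to at most 1.99 TPM in EV and 0.87 TPM in FCN3 libraries, and endothelial markers to at most 0.08 TPM in any library. Fibroblast markers summed to 3.44 and 8.18 TPM in EV and to 2.7 and 7.91 TPM in FCN3 libraries.

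The endoplasmic reticulum (ER) folds secreted and membrane proteins, and an excess of unfolded protein there activates sensors in its membrane. IRE1α, encoded by ERN1, is a kinase and RNase that cuts a short intron out of XBP1 mRNA, which gives the active transcription factor XBP1s. PERK, encoded by EIF2AK3, phosphorylates eIF2α, which lowers translation in general and favours translation of ATF4. ATF6 and its relative ATF6B travel to the Golgi, where the site-1 protease (MBTPS1) and the site-2 protease (MBTPS2) release their transcription factor domains. The other eIF2α kinases answer to other stresses: HRI (EIF2AK1) to low haem and mitochondrial stress, PKR (EIF2AK2) to double-stranded RNA, and GCN2 (EIF2AK4) to amino acid shortage. The question put to the data was which of these genes differ in mRNA level between FCN3-virus-transduced and EV cells. Kinase and protease activities were not measured by these libraries.

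XBP1, EIF2AK3 and ERN1 had the highest fold changes of the 10 genes, between 2.50 and 2.94 with the FCN3 virus. XBP1 and EIF2AK3 were up-regulated at a false discovery rate (FDR) under 0.01 by edgeR's quasi-likelihood test, adjusted over the 14099 genes, while ERN1 was at an FDR of 0.0157. The fold change of ATF6 was 1.34, that of EIF2AK1 0.859, and those of the remaining 5 genes lay between 0.928 and 1.06. In bulk RNA, a higher level in every cell and a larger share of cells with a high level cannot be told apart.

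In all, 2 of the 10 genes were called higher and 0 lower, where 0.738% of all tested genes were called higher and 0.227% lower. With the replicate number as a block, 4 were called higher (XBP1, EIF2AK3, ERN1 and ATF6) and 1 lower (EIF2AK1). The block raised the calls over all genes as well, to 19.1% higher and 17.1% lower. At an unadjusted p under 0.05 in edgeR's test without the block, the same 4 genes were higher and EIF2AK1 lower, where 13.6% of all tested genes were higher and 11.6% lower. DESeq2 without the block called 3 of the 10 higher (XBP1, EIF2AK3 and ERN1) and 0 lower, against 4.43% and 3.43% of the 13317 genes to which it gave an adjusted p. The FCN3 libraries were both above the EV libraries for 4 of the 10 genes and both below them for 2 (ATF6B and EIF2AK1), against 28% and 26.5% of all tested genes. The median log2 fold change was 0.07 over the 10 genes and 0.02 over all tested genes.

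**Figure D1:**
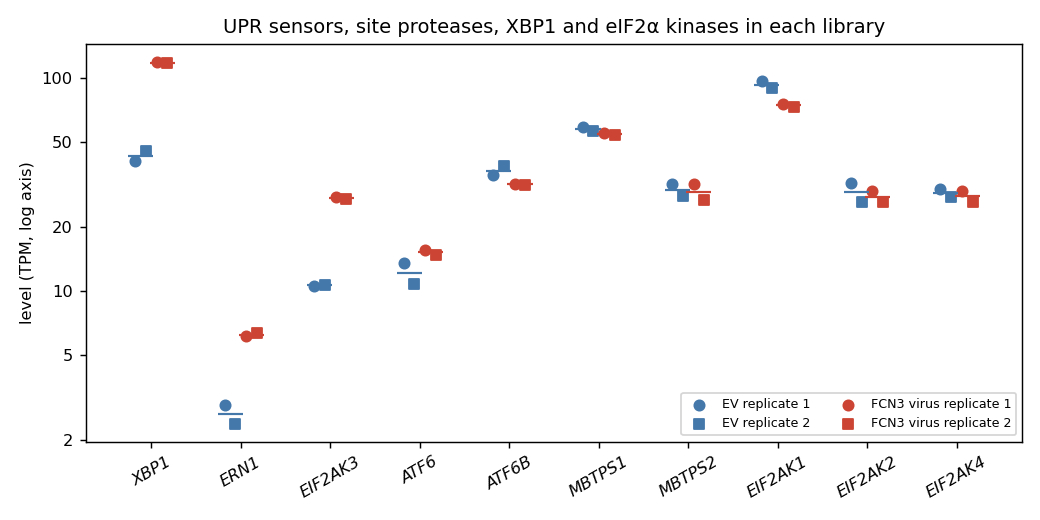
Level of each gene in each library, in TPM on a log axis, with EV libraries in blue, FCN3 libraries in red and a line at the mean of each group (n = 2). XBP1, ERN1 and EIF2AK3 are higher in both red libraries than in both blue ones, with mean XBP1 levels of 43.15 and 118.58 TPM, and MBTPS2, EIF2AK2 and EIF2AK4 overlap.

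The IRE1 branch is described first, starting with the stretch of XBP1 mRNA that IRE1 cuts. XBP1 lies at chr22:29190543-29196585 on the minus strand of GRCh37. The intron, at chr22:29192115-29192140, is 26 bases long and lies within the coding part of exon 4 of the annotated transcript that retains it. It is printed in capitals, with 30 bases on either side, over chr22:29192085-29192170 and 5′ to 3′ along the mRNA, because the length readout given further on rests on it.

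XBP1 intron: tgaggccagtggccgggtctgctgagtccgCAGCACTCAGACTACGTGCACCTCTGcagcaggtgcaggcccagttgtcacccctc

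The ends of the intron were placed at the cuts after the third base of the loops CCGCAGC and CTGCAGC, one of 7 placements that leave the same spliced sequence. Since its 26 bases are 2 more than a whole number of codons, removal shifts the reading frame, which then runs for 376 codons in place of 261.

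XBP1 mRNA stood at 36.69 and 41.28 CPM (counts per 1000000, scaled by the TMM factors) in EV replicates 1 and 2, and at 115.6 and 112.7 CPM in FCN3 replicates 1 and 2. Each FCN3 library was far above each EV library, and replicates of a group were close to each other. XBP1 was up-regulated by 1.55 ± 0.10 on the log2 scale (SE, n = 2 per group, edgeR quasi-likelihood FDR 0.00296), a fold change of 2.94. The log2 difference was 1.66 within replicate 1 and 1.45 within replicate 2. With the replicate block the log2 fold change was 1.56 ± 0.06 (edgeR FDR 2.049e-27).

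The mean length of XBP1 transcripts, which RSEM computes from the abundance of the forms it distinguishes, moved with the level. It was 1817.45 and 1817.5 bases in the EV libraries and 1803.44 and 1806.17 bases in the FCN3 libraries. The mean transcript was shorter with the FCN3 virus, with a change of -14.01 bases in replicate 1 and -11.33 bases in replicate 2, while replicates of one group differed by 0.05 bases (EV) and 2.73 bases (FCN3). The deposited table assigns 2 RefSeq transcripts to XBP1, one retaining the intron and one lacking it. If that pair differs in length by the 26 bases of the intron and by nothing else, which was not checked on the transcript versions used by the authors, the share of the intron-less form was higher by 53.9 percentage points in replicate 1 and 43.6 in replicate 2. Under the same assumption the intron-less form made up at most 46.1% of XBP1 transcripts in EV replicate 1 and 45.9% in EV replicate 2. It then made up at least 54.1% in FCN3 replicate 1 and at least 43.6% in FCN3 replicate 2. The ranges share one unknown starting point, so they move up or down together and the differences between libraries stay the same.

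Combining these shares with the TPM of XBP1 (40.79 and 45.51 TPM in EV, 119.23 and 117.93 TPM in FCN3) gave the level of the intron-less form. It was at most 18.81 and 20.9 TPM in the EV libraries and at least 64.48 and 51.39 TPM in the FCN3 libraries. The smallest ratio that these lengths allow was 6.34 in replicate 1 and 5.05 in replicate 2, against a fold change of 2.94 for all XBP1 mRNA. These values depend on the assumed length difference: the transcripts with and without the intron in the GENCODE annotation are 1850 and 1791 bases long and differ by 59 bases, since they also differ outside the intron. With 59 bases in place of 26, an alternative chosen after the data were seen, the share of the intron-less form was higher by 23.7 percentage points in replicate 1 and 19.2 in replicate 2. It was then at most 76.3% and 76.2% in the EV libraries and at least 23.8% and 19.2% in the FCN3 libraries, and the smallest ratio of its level was 3.83 in replicate 1 and 3.24 in replicate 2. No test was run on the lengths. Of 6059 tested genes with several transcripts, 34.1% had mean lengths that did not overlap between the groups, so the lack of overlap is no result about XBP1 on its own. The length of the 17266 genes with 1 transcript is fixed, so it could not differ between libraries and is no check on the XBP1 length. The other sensor, protease and kinase genes with several transcripts were ATF6B, EIF2AK1 and EIF2AK2. Their mean lengths changed by -0.32, 0.01 and -2.41 bases. Some genes of the lists described further on differed by more than XBP1. HYOU1 was at 4512.82 and 4509.97 bases in EV and 4560.06 and 4553.01 bases in FCN3 libraries. DDIT3 was at 953.95 and 981.68 bases in EV and 927.36 and 941.58 bases in FCN3 libraries. Others differed by less, such as SYVN1 (3049.74 and 3049.44 bases in EV, 3049.66 and 3049.41 bases in FCN3 libraries). The size of the XBP1 change was not compared with all genes that have several transcripts.

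**Figure D2:**
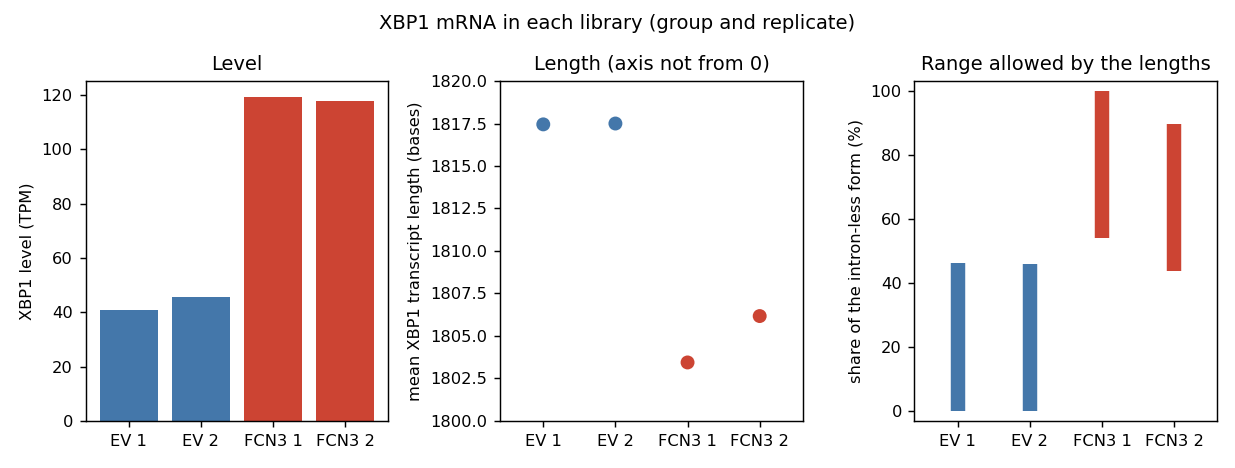
XBP1 level in TPM (left), mean XBP1 transcript length in bases on an axis that does not start at 0 (middle), and the range of the intron-less share in percent that the lengths allow if the forms differ by 26 bases (right), for each of the 4 libraries. The lengths drop from 1817.45 and 1817.5 bases in EV to 1803.44 and 1806.17 bases in FCN3 libraries, and the ranges of the share overlap between EV replicates and FCN3 replicate 2.

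The XBP1 promoter is a known target of ATF6 and of XBP1 itself, through the ER stress response element (ERSE), CCAAT and CCACG spaced 9 bases apart. RefSeq (GRCh38.p14) gives 2 starts for XBP1. The 250 bases before the start listed first matched GRCh37 exactly once on the chromosome, at chr22:29196558-29196807 on the minus strand. They are shown with the ERSE in capitals.

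XBP1 promoter: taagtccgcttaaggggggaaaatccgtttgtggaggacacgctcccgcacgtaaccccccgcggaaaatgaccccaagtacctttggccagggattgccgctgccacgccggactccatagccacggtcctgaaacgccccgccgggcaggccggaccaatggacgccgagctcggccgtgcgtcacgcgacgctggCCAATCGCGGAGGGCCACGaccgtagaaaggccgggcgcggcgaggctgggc

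The element lies 52 to 34 bases before the start. Of 35116 promoter windows of 300 bases in the same RefSeq table, 27 (0.0769%) held an ERSE on either strand. The search also covered ERSE-II (ATTGG and CCACG 1 base apart, in 0.0541% of all windows), the UPR element core TGACGTGG (0.729%), the cAMP response element TGACGTCA (1.85%) and the C/EBP-ATF composite TGATGNAA (3.62%). For 9 of the 10 genes a promoter was in the table, and the windows of the 8 genes other than XBP1 held none of these letters. The window of the other XBP1 start also held none of them. EIF2AK1 was not in the table. A match is a description of the letters in this window and no evidence of binding.

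ERN1, the gene of IRE1α, lies at chr17:62116440-62208179 on the minus strand. It was the lowest of the 10 genes, at 6.06 and 5.02 CPM in EV and 13.94 and 14.23 CPM in FCN3 libraries, from 221, 84, 473 and 283 expected counts. The groups did not overlap. The log2 fold change was 1.32 ± 0.16 (SE, n = 2 per group) at an edgeR quasi-likelihood FDR of 0.0157, which missed the threshold of 0.01, and the log2 differences were 1.2 within replicate 1 and 1.5 within replicate 2. With the replicate block it was called, at 1.32 ± 0.12 (edgeR FDR 4.595e-13), and DESeq2 without a block also called it (adjusted p 1.747e-05). Over all alternatives the adjusted p ran from 4.595e-13 to 0.0502.

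The genes that act with IRE1 or on XBP1 mRNA did not move as one group. Of 13 tested genes in this list, 3 were up-regulated and 0 down-regulated, where 0.738% and 0.227% of all tested genes were called. The block called 3 higher and 1 lower, against 19.1% and 17.1% of all tested genes. The median log2 fold change was 0.06 against 0.02 for all tested genes. The up-regulated genes were DNAJB9, an ER co-chaperone that represses IRE1 (3.15 ± 0.13, edgeR FDR 0.00123), PDIA6, a disulfide isomerase that acts on IRE1 (1.54 ± 0.09, edgeR FDR 0.00296), and SYVN1, the ubiquitin ligase HRD1 (1.73 ± 0.17, edgeR FDR 0.00994). C22orf28, which encodes the ligase RTCB that joins the cut XBP1 mRNA, had a log2 fold change of -0.04 ± 0.11, and the other subunits of its complex lay between -0.20 (FAM98B) and 0.33 (ZBTB8OS), none of them called with or without the block. TRAF2, the adaptor that links IRE1 to JNK signalling, was at -0.56 ± 0.13 (edgeR FDR 0.0619) and was called lower with the block (edgeR FDR 3.631e-11). ERN2, the gene of the gut form IRE1β, was not tested.

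All 10 genes listed as readouts of the XBP1 branch had log2 fold changes above 0, and their median was 1.21. Without the block 5 of them were up-regulated, where 0.738% of all tested genes were called higher. They were DNAJB9, DNAJC3 (2.56 ± 0.16), SEC24D (2.07 ± 0.13), EDEM1 (1.81 ± 0.17) and SEC11C (1.48 ± 0.10). With the block 9 were called higher, where 19.1% of all tested genes were. EDEM2 was called in neither fit, at 0.14 ± 0.14. These serve ER-associated degradation, translocation and vesicle transport, and DNAJB9 and DNAJC3 are shared with other lists described here.

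EIF2AK3, the gene of PERK, lies at chr2:88856259-88991036 on the minus strand. It stood at 25.74 and 26.40 CPM in the EV libraries and at 73.53 and 70.54 CPM in the FCN3 libraries. The groups did not overlap, and the replicates within a group differed by 0.04 (EV) and 0.06 (FCN3) on the log2 scale. EIF2AK3 was up-regulated by 1.47 ± 0.09 on the log2 scale (SE, n = 2 per group, edgeR quasi-likelihood FDR 0.00296), 2.77-fold, and by 1.47 ± 0.07 with the block (edgeR FDR 8.634e-25). Its RefSeq promoter matched GRCh37 once on the chromosome, at chr2:88926983-88927232 on the minus strand. This window lies inside the GENCODE span given above, which begins at a start further upstream. It is printed as the RefSeq promoter of the other up-regulated gene, with no ERSE or other searched motif in it. The GENCODE start was not searched.

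EIF2AK3 promoter: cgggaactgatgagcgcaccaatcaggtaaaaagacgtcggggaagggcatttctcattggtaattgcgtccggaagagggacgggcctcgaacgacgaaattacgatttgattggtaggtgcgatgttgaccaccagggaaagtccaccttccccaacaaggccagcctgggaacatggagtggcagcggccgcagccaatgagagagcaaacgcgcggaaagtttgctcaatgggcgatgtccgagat

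Among the kinases that share eIF2α as a substrate, only EIF2AK3 was called higher in either edgeR fit. EIF2AK1 (chr7:6061878-6098806, minus strand) was at 226.8 and 212.1 CPM in EV and at 192.6 and 184.6 CPM in FCN3 libraries, so that the FCN3 libraries were both the lower ones. Its log2 fold change was -0.22 ± 0.08 (edgeR FDR 0.178) without the block and -0.22 ± 0.05 (edgeR FDR 0.0003705) with it, and its adjusted p ran from 0.0003705 to 0.611 over all alternatives. It shares 532 exon bases, 9.7% of its own, with AIMP2 on the opposite strand. The kit was stranded, but the strand setting of the counting is not given in the sources used here, so reads of the pair may not be fully separated.

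EIF2AK2 (chr2:37326353-37384665, minus strand) was at 69.18 and 57.23 CPM in EV and 69.10 and 60.18 CPM in FCN3 libraries. Its log2 fold change was 0.03 ± 0.13, with a 95% interval from -0.30 to 0.36. EIF2AK4 (chr15:40226316-40327792, plus strand) was at 87.73 and 81.06 CPM in EV and 93.75 and 81.45 CPM in FCN3 libraries. Its log2 fold change was 0.05 ± 0.11, with a 95% interval from -0.21 to 0.32. Both genes were higher in replicate 1 than in replicate 2 in both groups, and the groups overlapped. The intervals do not reach the change of EIF2AK3, but differences between genes were not tested.

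Per length, the summed level of the kinases was 169.48 and 154.18 TPM in EV and 162.22 and 152.8 TPM in FCN3 libraries, ranges that overlap. EIF2AK3 made up 6.2% and 6.9% of that sum in EV and 17.1% and 17.7% in FCN3 libraries. EIF2AK1 made up 57.1% and 58.2% in EV and 46.6% and 48.2% in FCN3 libraries, and remained the most abundant of the kinase mRNAs in every library. The shares of EIF2AK2 (17% to 18.9%) and EIF2AK4 (17.1% to 18.2%) spanned similar values in both groups.

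Of 9 genes listed as regulators of these kinases, 1 was up-regulated and 0 down-regulated, where 0.738% and 0.227% of all tested genes were called. The median log2 fold change of the list was 0.23. The up-regulated gene was DNAJC3, which encodes P58IPK, an ER protein first known as an inhibitor of PKR and PERK. It was at 33.59 and 30.88 CPM in EV and 216.6 and 163.8 CPM in FCN3 libraries (2.56 ± 0.16, edgeR FDR 0.00296). IMPACT, which inhibits GCN2, was at 0.63 ± 0.13 (edgeR FDR 0.0546). With the block it was called higher together with DNAJC3, NCK1 and OMA1, while TARBP2 was called lower. These are 4 and 1 of the 9 genes, against 19.1% and 17.1% of all tested genes. PRKRA, the protein activator of PKR, was at 0.00 ± 0.10 in log2 fold change.

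Among 13 genes for eIF2, its exchange factor eIF2B and the eIF2α phosphatases, 1 was up-regulated and 0 down-regulated (median log2 fold change 0.05). Over all tested genes 0.738% were called higher and 0.227% lower. The up-regulated gene was PPP1R15A, the gene of GADD34, which directs protein phosphatase 1 to eIF2α. It was at 53.13 and 61.77 CPM in EV and 196.1 and 204.8 CPM in FCN3 libraries (1.81 ± 0.10, edgeR FDR 0.00279). PPP1R15B, its constitutive counterpart, was at 0.08 ± 0.12 (edgeR FDR 0.727). EIF2S1, which encodes eIF2α itself, was at 0.05 ± 0.14 (edgeR FDR 0.875). With the block 3 of the 13 were called higher (EIF2S2, EIF2B2 and PPP1R15A) and 2 lower (PPP1CA and PPP1CC), against 19.1% and 17.1% of all tested genes.

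Of 10 readouts of the PERK branch, 7 were up-regulated without the block and 9 with it, at a median log2 fold change of 2.19. Over all tested genes 0.738% were called higher without the block and 19.1% with it. DDIT3, the gene of the transcription factor CHOP, had the highest fold change of the list (4.35 ± 0.12, edgeR FDR 0.000403), at 6.92 and 7.89 CPM in EV and 155.5 and 143.4 CPM in FCN3 libraries. The others were CHAC1 (3.50 ± 0.16), ATF3 (3.0 ± 0.23), TRIB3 (2.70 ± 0.09), SESN2 (2.27 ± 0.14), ASNS (2.11 ± 0.09) and PPP1R15A. ATF4, which is controlled mainly in translation, was at 0.61 ± 0.09 (edgeR FDR 0.0255) and CEBPB at 0.20 ± 0.17 (edgeR FDR 0.502). The list does not separate PERK from the other eIF2α kinases, since they share ATF4 and its targets.

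EIF2AK2 is itself an interferon-stimulated gene, so 15 such genes were listed beside it. Of the 12 that were tested, 0 were called by edgeR without the block (median log2 fold change 0.54). Over all tested genes it called 0.738% higher and 0.227% lower. The block called 4 higher and 2 lower, against 19.1% and 17.1% of all tested genes. At an unadjusted p under 0.05 without the block 3 of the 12 were higher and 2 lower (13.6% and 11.6% of all tested genes), and DESeq2 without the block called 1 higher and 1 lower (4.43% and 3.43% of all genes). IFIT2 had the highest fold change, at 1.37 and 2.15 CPM in EV and 5.34 and 5.83 CPM in FCN3 libraries (1.75 ± 0.27, edgeR FDR 0.0262). OAS2, IFI44 and IFI44L were not tested.

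ATF6 (chr1:161736088-161947364, plus strand) was at 54.55 and 43.97 CPM in EV and at 68.37 and 63.85 CPM in FCN3 libraries. The groups did not overlap, but the gap between them was smaller than the distance between the EV replicates. The log2 fold change was 0.42 ± 0.13 (SE, n = 2 per group, edgeR quasi-likelihood FDR 0.122), with 0.33 within replicate 1 and 0.54 within replicate 2. With the block it was called higher, at 0.42 ± 0.07 (edgeR FDR 2.824e-07), and its adjusted p ran from 2.824e-07 to 0.372 over all alternatives. Without EV replicate 1 the log2 fold change was 0.60, without EV replicate 2 it was 0.27, and neither was called.

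ATF6B (chr6:32083041-32096030, minus strand) was at 46.59 and 52.03 CPM in EV and at 46.40 and 44.85 CPM in FCN3 libraries. The FCN3 libraries lay below the EV libraries, within replicate 1 by less than 0.01 on the log2 scale. Its log2 fold change of -0.11 ± 0.10 was not called (edgeR FDR 0.563, and 0.212 with the block), with a 95% interval from -0.36 to 0.15, and was -0.18 without EV replicate 1 and -0.04 without EV replicate 2. Per length, ATF6B was the more abundant of the pair in every library, at 2.58 and 3.57 times the TPM of ATF6 in EV and 2.05 and 2.12 times in FCN3 libraries. ATF6B shares 289 exon bases (8.0%) with a noncoding RNA gene on the same strand that is not among the genes of the deposited tables. It also shares 71 exon bases (2.0%) with TNXB on the same strand, a gene with a mean of 31.8 expected counts.

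The proteases that cleave ATF6 showed no call in any fit. MBTPS1 (chr16:84087366-84150547, minus strand) was at 134.0 and 130.2 CPM in EV and 137.3 and 132.4 CPM in FCN3 libraries. Its log2 fold change was 0.03 ± 0.08, with a 95% interval from -0.17 to 0.23, the narrowest of the 10 genes. MBTPS2 (chrX:21857735-21903541, plus strand) was at 75.57 and 66.84 CPM in EV and 82.25 and 68.22 CPM in FCN3 libraries. Its log2 fold change was 0.08 ± 0.13, with a 95% interval from -0.24 to 0.40, and the groups overlapped. MBTPS2 shares 1093 exon bases (12.2%) with YY2 on the same strand, a gene with a mean of 129 expected counts.

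**Figure D3:**
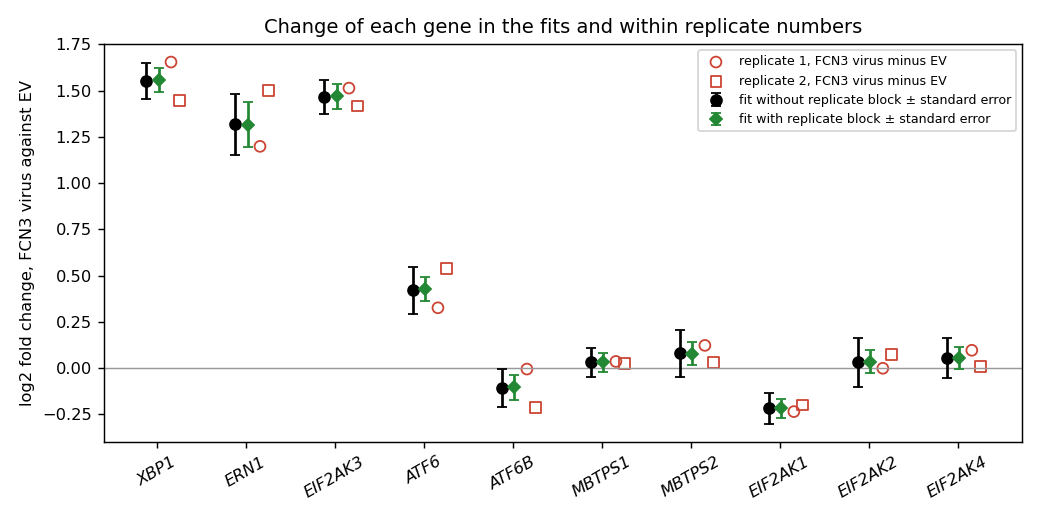
Log2 fold change of FCN3 virus against EV for each gene, as fitted without the replicate block (black) and with it (green), with standard errors as bars, and as the difference within each replicate number (open red symbols). XBP1, EIF2AK3 and ERN1 lie between 1.2 and 1.66 in every estimate, and MBTPS1, MBTPS2, EIF2AK2 and EIF2AK4 lie between 0.00 and 0.12.

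Of 9 genes that hold ATF6 in the ER, act on its disulfides or bind DNA beside it, 1 was up-regulated and 0 down-regulated. Over all tested genes 0.738% were called higher and 0.227% lower. The median log2 fold change of the list was -0.05. HSPA5, the ER chaperone BiP that binds the sensors, was at 751.1 and 747.1 CPM in EV and 7314 and 6371 CPM in FCN3 libraries (3.19 ± 0.12, edgeR FDR 0.000989). PDIA5, a disulfide isomerase of ATF6, was at 0.98 ± 0.11 (edgeR FDR 0.0122) and WFS1, which promotes degradation of ATF6, at 0.70 ± 0.11 (edgeR FDR 0.0262), both called higher with the block. NFYA, NFYB and NFYC, the subunits of the factor that binds CCAAT beside ATF6, lay between -0.28 and -0.04. With the block NFYA and GTF2I were called lower. In total the block called 3 of the 9 higher and 2 lower, against 19.1% and 17.1% of all tested genes.

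Of 8 tested genes for other substrates of the site-1 and site-2 proteases and their escort SCAP, edgeR without the block called 0. Over all tested genes it called 0.738% higher and 0.227% lower. The median log2 fold change of the 8 genes was 0.36. The block called 4 higher and 2 lower, against 19.1% and 17.1% of all tested genes. At an unadjusted p under 0.05 without the block 4 of the 8 were higher and 2 lower (13.6% and 11.6% of all tested genes), and DESeq2 without the block called 1 higher and 0 lower (4.43% and 3.43% of all genes). CREB3L2, an ER-bound relative of ATF6, was at 0.74 ± 0.16 (edgeR FDR 0.0556), from 106.5 and 83.69 CPM in EV to 175.6 and 142.7 CPM in FCN3 libraries. SREBF2, the regulator of cholesterol synthesis, was at 0.47 ± 0.10 (edgeR FDR 0.0502), and SREBF1 was at 0.00 ± 0.08.

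All 10 genes listed as readouts of ATF6 were up-regulated in both fits, at a median log2 fold change of 2.63. Over all tested genes 0.738% were called higher without the block and 19.1% with it. They ranged from CALR, the lectin chaperone calreticulin (1.42 ± 0.12, edgeR FDR 0.00594), to HERPUD1, a part of the ER degradation complex (3.78 ± 0.11, edgeR FDR 0.000403). CRELD2 (3.68 ± 0.09), HSPA5, HYOU1 (2.88 ± 0.09), SDF2L1 (2.69 ± 0.14), PDIA4 (2.57 ± 0.13), HSP90B1 (2.44 ± 0.11), MANF (2.44 ± 0.08) and DNAJB11 (2.08 ± 0.11) lay between them. In the 7 lists with a gene called higher, 0 were called lower without the block, against 0.227% of all tested genes. At an unadjusted p under 0.05 in edgeR's test without the block, between 0 and 2 genes of each were lower, against 11.6% of all tested genes. DESeq2 without the block called 1 lower (TRAF2), against 3.43% of the genes to which it gave an adjusted p. The 3 readout lists were chosen with earlier results of these data known, so their directions are a description, and several of these genes answer to more than 1 branch.

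**Figure D4:**
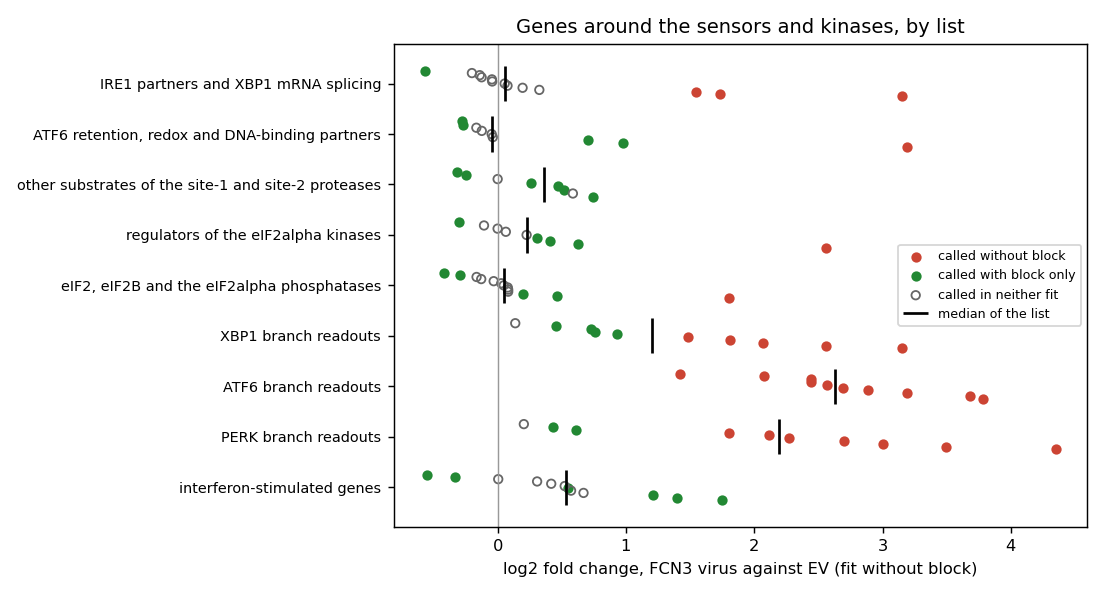
Log2 fold change (FCN3 virus against EV, fit without the block) of each tested gene of the 9 lists, with red for genes called without the block, green for genes called only with it, open circles for genes called in neither fit, and a bar at the list's median. The readouts of ATF6, PERK and XBP1 have medians of 2.63, 2.19 and 1.21, and the lists of partners, substrates, regulators and interferon-stimulated genes have medians between -0.05 and 0.54.

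The order of the mRNA levels changed with the FCN3 virus. In EV cells EIF2AK1 was the most abundant (93.24 ± 5.02 TPM, SD, n = 2), followed by MBTPS1 (57.69 ± 1.53), XBP1 (43.15 ± 3.34) and ATF6B (36.78 ± 2.64). MBTPS2 (29.84), EIF2AK2 (29.15) and EIF2AK4 (28.83 TPM) followed with overlapping libraries. ATF6 (12.18 ± 1.93), EIF2AK3 (10.62 ± 0.13) and ERN1 (2.64 ± 0.37 TPM) were the lowest, so the sensors were the least abundant of these mRNAs apart from ATF6B.

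In FCN3-virus-transduced cells XBP1 came first (118.58 ± 0.92 TPM), ahead of EIF2AK1 (74.59 ± 1.37) and MBTPS1 (54.84 ± 0.76). ATF6B, MBTPS2, EIF2AK4, EIF2AK2 and EIF2AK3 followed at 31.7 to 27.33 TPM, each overlapping with its neighbour in the order. ATF6 (15.22 ± 0.56) and ERN1 (6.24 ± 0.16 TPM) remained the lowest. EIF2AK3 thus passed ATF6 and reached the range of the other kinases except EIF2AK1. The ratio of XBP1 to ERN1 was 14.07 and 19.12 in EV and 19.45 and 18.57 in FCN3 libraries, without separation between the groups beyond the spread of the EV replicates.

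For the up-regulated pair, the genes with the most similar pattern over the 4 libraries were found among 11970 tested genes, by the root mean square difference of centred log2 CPM. Nearest to EIF2AK3 were SLC33A1, the acetyl-CoA transporter of the ER (0.0178), GFPT1, the first enzyme of the hexosamine pathway (0.0225), and SEC11C, a subunit of the signal peptidase (0.0273). Nearest to XBP1 were CCNG2, a cyclin G (0.0346), PDIA3, a disulfide isomerase (0.0411), and PPIB, an ER prolyl isomerase (0.0455). With 4 libraries in 2 groups, such closeness mostly means a like fold change, and these genes had log2 fold changes from 1.45 to 1.61. Without the block CCNG2 was not called (1.61 ± 0.21, edgeR FDR 0.0181), while the others were.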

How the data were processed

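Stranded mRNA libraries of A549 cells (2 EV, 2 FCN3 virus) were sequenced by the authors as paired-end reads, trimmed, aligned to hg19 with STAR 2.6.1d and quantified with RSEM. The deposited tables hold, for each gene, the expected count (an estimated count, not normalized), TPM (normalized by RSEM for transcript length and depth), and the mean and effective transcript length in bases. FPKM was not used here. The annotation and strand setting are not given in the sources used here. RSEM splits reads that fit several genes, so counts of overlapping or similar genes are uncertain.

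For testing, expected counts were rounded to whole numbers and fitted with edgeR 4.0.16 in R 4.3.3 (TMM, filterByExpr, quasi-likelihood test, Benjamini-Hochberg over 14099 genes, FDR threshold 0.01), group only, as the study's methods name no block. A fit with the replicate number as a block is given beside it, because the comparison was to be read by replicate number. The labels give the number only. Across all tested genes the difference between replicates 1 and 2 correlated between the groups (Pearson r across genes 0.521, 10622 of 14099 with the same sign), and across the 10 genes r was 0.33 (6 of 10), but 2 pairs do not show that the numbers pair the samples. An exact permutation test of 2 against 2 cannot go below p = 0.333 (two-sided). SE is the absolute log2 fold change over the square root of F, and 95% intervals use the t quantile at edgeR's degrees of freedom, unadjusted. Differences within a replicate number were taken on log2 CPM with a prior count of 0.5. A floor of 3 counts corresponds to 0.084 to 0.183 CPM, which covers counting error only. The 10 genes and the tested list genes lay above it in every library. FCN3 in the EV libraries lay under it, as did the untested list genes in some or all libraries.

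The 10 genes and the lists were chosen with earlier results of these data known. Named are the 10 genes, every list gene called without the block or else the one with the highest absolute change of its list, the 3 genes nearest to each called gene (average log2 CPM of at least 1) and FCN3. Further list genes were named after their values were seen. Values of 1 gene on these lists are left out of the text. Promoters are from RefSeq (GRCh38.p14), and locations from GENCODE on GRCh37. A planned comparison of protein sequences was not run. Alternatives were DESeq2 1.42.0 with and without the block, RLE factors, other filters, FCN3 left out, limma 3.58.1 on log2(TPM + 1), effective-length offsets, the legacy quasi-likelihood method, an FDR of 0.05 and each library left out. The tests were tried on simulated data.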

Additional observations from a re-analysis of the deposited data

How the results depend on the processing

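XBP1 and EIF2AK3 were called higher under all 14 alternative fits, with log2 fold changes of 1.44 to 1.63 and 1.285 to 1.496. With the replicate block in edgeR, 2690 genes were called higher and 2413 lower, against 104 and 32 without it. DESeq2 gave 590 and 457 genes when no block was used, and with the block 1107 and 1105. At an FDR of 0.05 they were 624 and 390. Leaving out 1 library gave 78 to 181 higher and 14 to 86 lower genes: 181 and 86 without EV replicate 2, 53 lower without EV replicate 1 and 14 lower without FCN3 replicate 1. Where a group keeps 1 library, that library is assumed to vary like the other group. Of the 10 genes, the replicate block in edgeR called 4 higher and 1 lower, where 19.1% and 17.1% of all tested genes were called. DESeq2 with the block called 4 higher and 0 lower, where it called 1107 and 1105 of the 18636 genes that it fitted. DESeq2 without the block called 3 higher, against 4.43% of the genes to which it gave an adjusted p. An FDR of 0.05 in edgeR also called 3 higher, where 624 of the 14099 tested genes were called higher. Of 95 pathway genes, a number that includes the untested ones, 24 were called higher and 0 lower, where 0.738% and 0.227% of all tested genes were called. With the replicate block they were 45 and 10, where 19.1% and 17.1% of all tested genes were called. DESeq2 called 37 and 6 with the block, where it called 1107 and 1105 of the 18636 fitted genes, and 33 and 2 without it. Without the block DESeq2 called 4.43% and 3.43% of the genes to which it gave an adjusted p. Among 140 values of the 10 genes, 124 kept direction and call, 6 gained a call, 0 lost one and 10 changed sign, all 10 in genes not called. On log2(TPM + 1), where the median of all tested genes was -0.072 in place of 0.016, MBTPS1 was at -0.072, MBTPS2 at -0.026, EIF2AK2 at -0.064 and EIF2AK4 at -0.05. Without EV replicate 2 they were at -0.011 (MBTPS2), -0.103 (EIF2AK2) and -0.008 (EIF2AK4), and without FCN3 replicate 1 at -0.064 (MBTPS2), -0.074 (EIF2AK2) and -0.053 (EIF2AK4). Leaving out 1 library, the ranges were -0.064 to 0.207 for MBTPS2, -0.103 to 0.187 for EIF2AK2, -0.053 to 0.151 for EIF2AK4, 0.271 to 0.599 for ATF6 and -0.18 to -0.037 for ATF6B. The cause of the changes was not tested.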
